A study of Mus musculus with 6 samples.

Results

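The MHC class II and invariant chain genes described here are 8 mouse genes, Cd74, Ciita, H2-Aa, H2-Ab1, H2-Eb1, H2-DMa, H2-DMb1 and Ctss, taken by symbol from the 24346 gene symbols measured. They were chosen by their FPKM in these same 6 samples, so their levels are given as a description, and no p-value is given for them. RNA sequencing had been performed on CT26.mMR1 cells (parental), a mouse colorectal tumor line transduced by retrovirus with mouse MR1 and labelled CT26_cl9, and on M8, a clone derived from these cells. M8 was obtained by treatment with the mutagen N-ethyl-N-nitrosourea (ENU) and limiting dilution, and was picked because it activated a MAIT cell reporter line more strongly and carried more surface MR1. Both lines thus carried the MR1 transgene, and M8 was 1 clone, so the effect of ENU cannot be told apart from differences between clones. Each line had 3 samples, which the study describes as biological replicates without saying how the cultures were kept apart, so any p-value below measures the spread between these samples of 1 parental line and 1 clone.

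MHC class II molecules are heterodimers of an alpha and a beta chain that display peptides from endosomes to CD4+ T cells. In the endoplasmic reticulum the chains assemble with the invariant chain, Cd74, which fills the peptide groove and directs the complex to endosomes. There, proteases that include cathepsin S (Ctss) cut the invariant chain down to a short groove fragment, and the H2-DM heterodimer (H2-DMa and H2-DMb) exchanges it for peptide. Ciita, the class II transactivator, is the master regulator of these genes and is recruited to their promoters by factors bound to the X and Y boxes. The genes are characteristic of dendritic cells, macrophages and B cells, and many other cell types switch them on after interferon-gamma.

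Promoter sequence, where available, was searched for the boxes through which Ciita acts. RefSeq promoters (GRCm38.p6) were at hand for 5 of the 8 members, H2-Aa, H2-Eb1, H2-DMb1, H2-DMa and Ctss. The 150 bases before each start are printed 5′ to 3′ on the strand of the gene, with motif matches in capitals. The windows lie at chr17:34287824-34287973 (H2-Aa, minus strand), chr17:34305717-34305866 (H2-Eb1, plus strand), chr17:34153041-34153190 (H2-DMb1, plus strand), chr17:34122682-34122831 (H2-DMa, plus strand) and chr3:95526636-95526785 (Ctss, plus strand). For H2-DMa, which had windows for 2 starts, the upstream one is shown.
H2-Aa: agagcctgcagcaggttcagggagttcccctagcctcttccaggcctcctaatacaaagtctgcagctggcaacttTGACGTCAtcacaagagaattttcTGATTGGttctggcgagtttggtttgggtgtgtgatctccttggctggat
H2-Eb1: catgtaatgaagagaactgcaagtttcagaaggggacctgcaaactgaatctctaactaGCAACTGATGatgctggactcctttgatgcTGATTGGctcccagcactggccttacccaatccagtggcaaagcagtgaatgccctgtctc
H2-DMb1: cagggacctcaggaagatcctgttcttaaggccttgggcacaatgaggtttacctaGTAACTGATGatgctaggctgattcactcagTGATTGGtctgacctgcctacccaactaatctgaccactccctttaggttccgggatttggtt
H2-DMa: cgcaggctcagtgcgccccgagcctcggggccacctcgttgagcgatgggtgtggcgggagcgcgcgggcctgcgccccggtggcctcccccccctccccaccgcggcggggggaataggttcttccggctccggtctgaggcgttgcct
Ctss: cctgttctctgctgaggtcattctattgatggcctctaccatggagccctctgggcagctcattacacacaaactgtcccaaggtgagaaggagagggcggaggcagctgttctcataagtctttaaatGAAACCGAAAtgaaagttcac

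The capitals mark TGATTGG, the core of the Y box bound by NF-Y, in H2-Aa, H2-Eb1 and H2-DMb1. They mark an X box core, searched with any base at its second and sixth positions and matched as GCAACTGATG in H2-Eb1 and GTAACTGATG in H2-DMb1. They also mark the cyclic AMP response element TGACGTCA in H2-Aa and, in Ctss, letters found in interferon-stimulated response elements, searched with any base at the fifth and the sixth position and matched as GAAACCGAAA. The letters were written with these promoters known and were searched on both strands in the 250 bases before each start. TGATTGG was in 7.23% of all 32851 RefSeq promoter windows of this length, the X box core in 0.682%, TGACGTCA in 1.55% and the interferon-type element in 2.98%. The motifs did not overlap each other in the printed windows.

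Apart from H2-DMa, each class II gene that had a window matched the Y box core. TGATTGG was in 7 of 7 such genes with a window, which were H2-Aa, H2-Eb1 and H2-DMb1 and, outside the members, H2-Eb2, H2-DMb2, H2-Oa and H2-Ob. The X box core was in 3 of these 7, and 20 bases lay between it and the Y box in H2-Eb1, 21 in H2-DMb1 and 20 in H2-Eb2. The search took fixed letters and misses variants of a box, so H2-Aa and the others without a match may still carry an X box. Only 0.07% of all windows held both motifs at any spacing. In H2-Aa, 16 bases separated TGACGTCA from the Y box.

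The 2 windows of H2-DMa differed in composition. Neither matched any of the 5 motifs searched, the fifth being TTCNNNGAA, which was in 7.02% of windows and, among the class II genes, in H2-DMb2. GC content was 74.0% in the printed H2-DMa window with 27 CpG dinucleotides in 250 bases, and 37.2% with none in the window before the other start (34125518), against medians of 52.4% and 6 over all windows. Both starts lie inside the annotated span of the gene, which begins at 34119693. Sequence before any other start was not searched, so the lack of a match does not show that H2-DMa lacks these boxes. H2-Aa had 3 CpG dinucleotides, H2-Eb1 none, H2-DMb1 3 and Ctss 4. The printed H2-DMa window also holds the RefSeq 5′ end of Brd2, a gene for a chromatin reader that is transcribed in the opposite direction.

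Of the 8 members, Cd74 and H2-DMa were measured above a mean of 1 FPKM, and the other 6 stayed below 0.3 FPKM in each of the 6 samples. FPKM are fragments per kilobase of transcript per unit of sequencing depth, so levels can be compared between genes. FPKM files hold no counts, but the steps between low values gave a relative depth of 1, 0.948 and 1.07 for parental replicates 1 to 3 and 0.875, 0.772 and 0.845 for M8 replicates 1 to 3. The same steps gave an estimated 19400000 to 27000000 reads per library. A fraction of 33.9% of gene symbols was listed at 0 in all 6 samples, while 34 housekeeping genes checked were above 0 throughout.

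**Figure D1:**
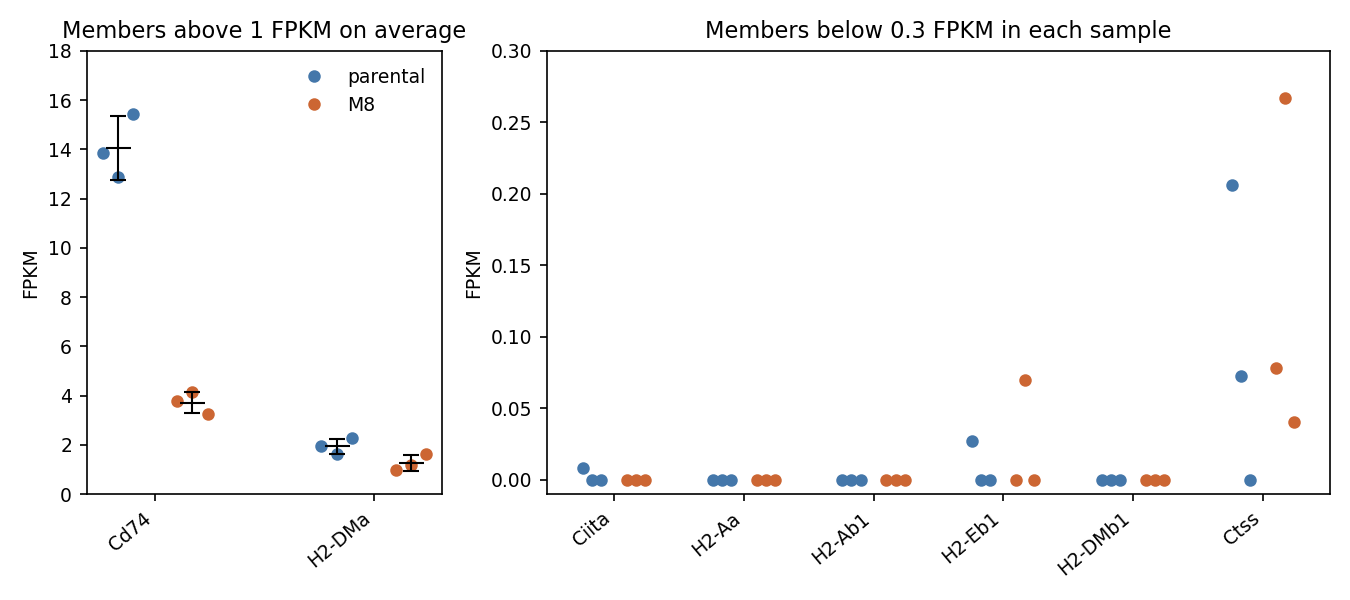
FPKM of the 8 genes in the 3 parental (blue) and 3 M8 (orange) samples, with the mean and SD as black bars on the left. Cd74 was between 12.9 and 15.4 FPKM in parental cells and between 3.25 and 4.13 in M8, H2-DMa lay lower in both lines, and the 6 genes on the right, drawn on a scale up to 0.3 FPKM, were at or near 0.

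Cd74 was the most abundant member and the one that differed most between the lines. It was measured at 13.9, 12.9 and 15.4 FPKM in parental replicates 1 to 3 and at 3.78, 4.13 and 3.25 FPKM in M8 replicates 1 to 3. The groups lay far apart, and the highest M8 sample was below the lowest parental one. The means were 14.1 ± 1.29 FPKM in parental cells and 3.72 ± 0.443 in M8 (SD, n = 3), 3.78-fold lower in M8, which retained 26.5% of the parental level. These FPKM correspond to about 422, 371 and 503 reads in the parental libraries and 101, 97 and 84 in the M8 libraries. In such bulk samples, fewer cells that contain the transcript and less transcript per cell cannot be told apart.

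H2-DMa, the alpha chain of the peptide exchange factor, was lower by a smaller margin. It was measured at 1.94, 1.64 and 2.26 FPKM in the parental replicates and at 0.997, 1.20 and 1.61 FPKM in the M8 replicates. The groups touched, with M8 replicate 3 at 1.61 FPKM just under parental replicate 2 at 1.64, and they overlapped after quantile normalization. Means were 1.95 ± 0.312 and 1.27 ± 0.314 FPKM (SD, n = 3), a ratio of 1.53, from about 40 to 110 reads per library. Its annotated span, chr17:34119693-34139101, overlaps Brd2 on the other strand. Brd2 was at 78.6 ± 1.61 FPKM in parental cells and 82.5 ± 1.93 in M8, and whether its reads reached the H2-DMa value was not tested.

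On the scale of log2(FPKM + 1), the M8 minus parental difference was -1.67 ± 0.09 (SE) for Cd74 and -0.38 ± 0.13 for H2-DMa. Cd74 was the 4th largest fall among the 10597 genes with a mean of at least 1 FPKM, and H2-DMa ranked 328th. Both passed the limma threshold used here (adjusted p below 0.1) as lower in M8, as did 16.5% of all genes tested (37.7% passed in either direction). Both had M8 samples entirely below parental ones, as did 20.4%, while 24.8% had M8 samples entirely above and 45.2% did not overlap in either direction. Since the members were chosen with this contrast known, nothing is read from these counts. The other 6 members did not pass the filter on low values and have no fitted change.

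**Figure D2:**
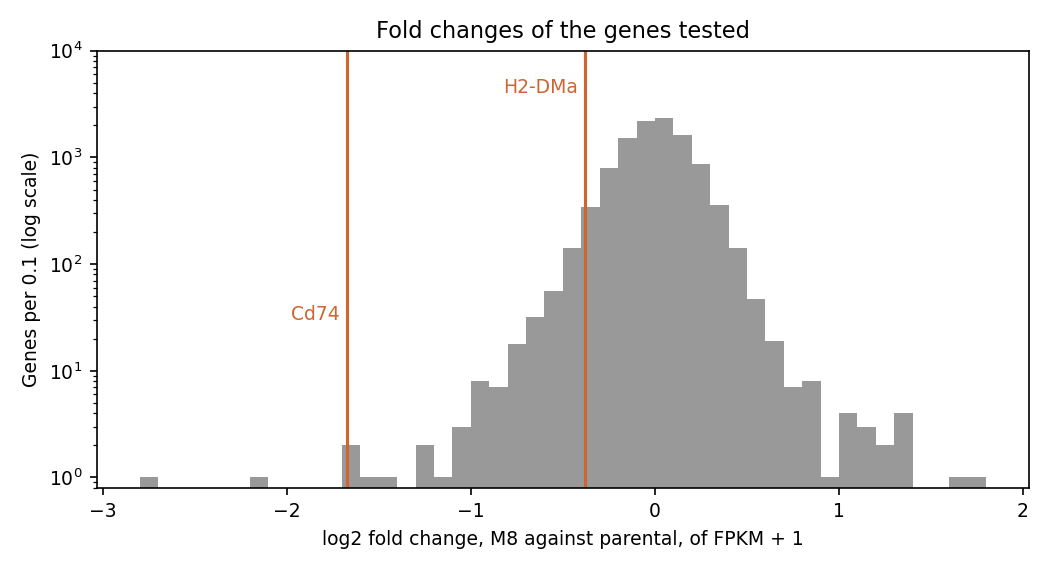
Number of genes (log axis) by log2 fold change of FPKM + 1 in M8 against parental cells, in steps of 0.1, for the 10597 genes tested. Cd74 at -1.67 lies in the far left tail and H2-DMa at -0.38 on the left shoulder of the distribution.

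The relation between Cd74 and H2-DMa also differed between the lines. The ratio of their FPKM was 7.16, 7.85 and 6.82 in the parental replicates and 3.79, 3.44 and 2.02 in the M8 replicates. Cd74 thus remained above H2-DMa in each sample, by a smaller factor in M8. Compared with H2-D1, an abundant MHC class I heavy chain, Cd74 was low in both lines, with H2-D1 exceeding it 49.0- to 56.3-fold in parental cells and 165- to 211-fold in M8.

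The alpha and beta chains that Cd74 accompanies were at the limit of detection in both lines. H2-Aa and H2-Ab1, the chains of the I-A molecule, were listed at 0 in all 6 samples. A count of 0 allows up to 3 reads, which is 0.120 to 0.167 FPKM for H2-Aa and 0.110 to 0.153 FPKM for H2-Ab1 depending on the library. H2-Eb1, the beta chain of I-E, was at 0.0271 FPKM in parental replicate 1 and 0.0701 FPKM in M8 replicate 2, or 1 and 2 reads, and at 0 in the other 4 samples. No difference between the lines was detectable for these chains at this depth. CT26 derives from BALB/c mice and the mm10 reference from C57BL/6, and the effect of MHC polymorphism on mapping of these chains was not tested.

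H2-DMb1, the partner chain of H2-DMa, was listed at 0 in all 6 samples, with 3 reads allowing 0.0924 to 0.128 FPKM. H2-DMa transcripts were therefore measured without detectable H2-DMb1, and its close copy H2-DMb2 was at 0.0634 FPKM in parental replicate 3 and at 0 elsewhere. Reads shared by the near-identical H2-DMb1 and H2-DMb2 could be split or lost in counting, so both values are uncertain.

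Ciita was listed at 0.00799 FPKM in parental replicate 1, about 1 read, and at 0 in the other 5 samples. The limit set by 3 reads was lower than for the other undetected genes, 0.0192 to 0.0266 FPKM, because its transcript is long. Its span, chr16:10480014-10531064, overlaps Dexi, which was at 9.63 FPKM in parental replicate 1. Cd74 was thus measured in both lines while its transactivator was at or near 0.

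Ctss, the protease that makes the late cuts in the invariant chain, was near 0 with no separation of the lines. It was at 0.206, 0.0724 and 0 FPKM in the parental replicates and at 0.0785, 0.267 and 0.0406 FPKM in the M8 replicates. This amounts to 8 reads in all over the parental libraries and 9 over the M8 libraries. The order of the members by mean level over all samples was Cd74, H2-DMa, Ctss, H2-Eb1 and Ciita, followed by the 3 genes at 0. Of neighbours in this order, Cd74 and H2-DMa were separated in each sample, as were H2-DMa and Ctss, and Ctss was above H2-Eb1 in 5 of the 6 samples, with both at 0 in parental replicate 3. H2-Eb1 and Ciita were not distinguishable beyond their spread.

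The chromosome 17 members sit in the class II region with genes of other function. Between H2-Oa and H2-Eb2, a stretch of 249 kb (chr17:34092379-34341410), lie 14 protein-coding genes. Of these, 8 stayed below 0.5 FPKM in each sample, and they were the class II chain genes, H2-DMb1, H2-DMb2, H2-Oa and H2-Ob. The 6 genes with a mean of at least 1 FPKM were H2-DMa, Brd2 and the class I processing genes Psmb8, Psmb9, Tap1 and Tap2. H2-DMa, at 0.997 to 2.26 FPKM, was the lowest of these 6, the next being Psmb9 at 10.2 to 14.3 FPKM.

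**Figure D3:**
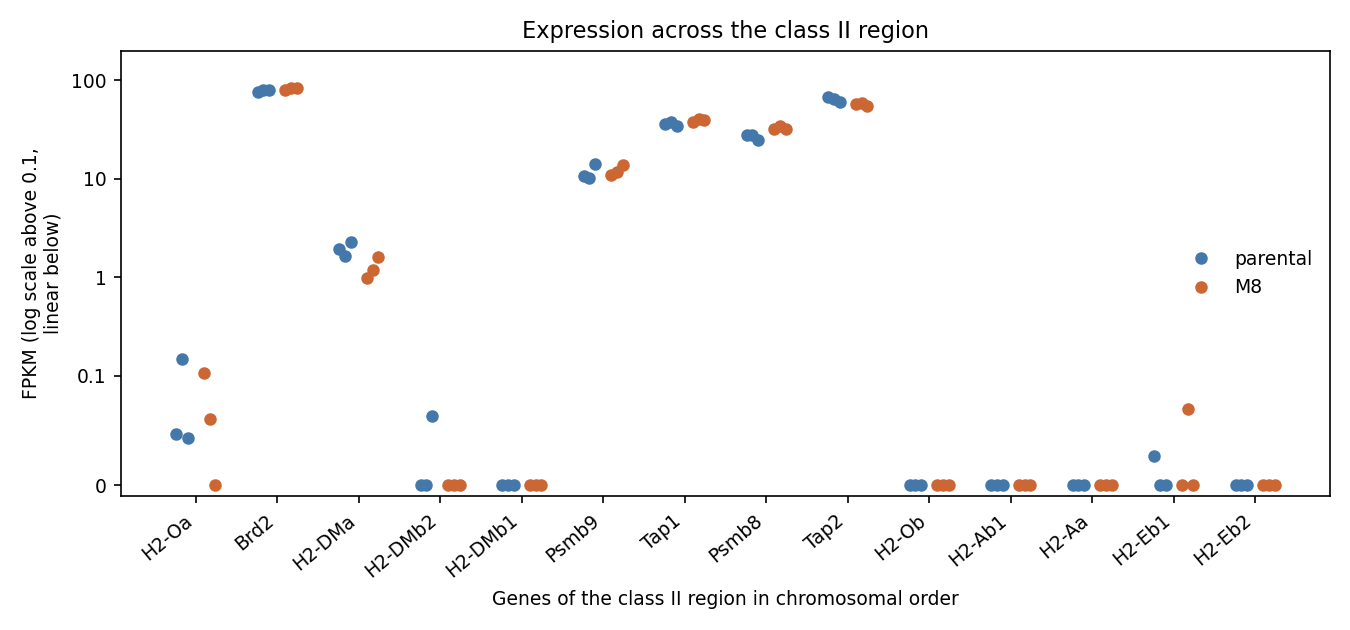
FPKM of the 14 protein-coding genes of the class II region in chromosomal order, in parental (blue) and M8 (orange) samples, on an axis that is logarithmic above 0.1 FPKM and linear below. H2-DMa, Brd2 and the 4 class I processing genes are above 0.9 FPKM in each sample, and the remaining 8 genes are at or near 0 in both lines.

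The remaining genes of the class II route and, for comparison, of the class I route were followed in 7 lists of 69 genes in all, of which 57 passed the filter. By limma, 15 of the 57 were higher in M8 (26.3%) and 10 lower (17.5%), against 21.2% and 16.5% of all genes tested. The median log2 fold change was -0.02 over the 57 and 0.01 over all 10597. The split depended on scaling, with 13 higher and 12 lower in TPM, 12 and 13 after upper-quartile scaling and 12 and 16 after quantile normalization. All 10597 genes shifted as well, from 2250 higher and 1745 lower to 1658 and 2209 in TPM, 1726 and 2296 after upper-quartile scaling and 1820 and 1775 after quantile normalization. Without parental replicate 2 the number lower was 6, and without M8 replicate 1 the number higher was 10. The first list held the other class II genes, H2-Ea (listed under the pseudogene symbol H2-Ea-ps), H2-Eb2, H2-DMb2, H2-Oa and H2-Ob. None of them passed the filter, and 3 of the 5 were at 0 throughout.

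Factors that bind the X and Y boxes, and the coactivators and Ciita partners listed with them (Crebbp, Ep300, Kat2b and Zxdc), were present in both lines. Of these 11 genes, 3 were higher in M8, 1 was lower and 7 did not pass, with a median log2 fold change of -0.01. Rfx5, the DNA-binding subunit of the X box complex RFX, was at 3.55, 4.48 and 4.11 FPKM in parental cells and 3.89, 3.83 and 4.30 in M8, with overlapping groups (-0.01 ± 0.09, limma adjusted p = 0.954). Nfyc, a subunit of the Y box factor NF-Y, was higher, at 20.3 ± 1.05 FPKM in parental cells and 27.9 ± 1.68 in M8 (0.44 ± 0.06, limma adjusted p = 0.00102), whereas its partner Nfyb was lower (-0.25 ± 0.05, limma adjusted p = 0.00791). Rfxap, another RFX subunit, and Zxdc, a zinc finger protein that interacts with Ciita, were higher by 0.25 and 0.23 on the log2 scale. Rfxap no longer passed without M8 replicate 1 (limma adjusted p = 0.123) or M8 replicate 3 (0.102).

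In the interferon-gamma signalling that induces Ciita, 2 of 11 genes tested were lower in M8, and the median log2 fold change over the list was -0.04. Irf1, an interferon-induced factor that acts on the Ciita promoter, was 27.8 ± 2.24 FPKM in parental cells and 27.0 ± 2.23 in M8 (limma adjusted p = 0.704). Socs3, a feedback inhibitor of cytokine signalling, and Irf2, a second factor of the Irf1 family, were lower by 0.24 and 0.19 on the log2 scale. Socs3 did not pass without parental replicate 2 (limma adjusted p = 0.104), and Irf2 did not pass without parental replicate 2 (0.147), parental replicate 3 (0.206), M8 replicate 1 (0.257) or M8 replicate 2 (0.143).

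Levels of the endosomal proteases ranged widely. Of the 12 genes in this list, Ctsc was listed at 0 in all 6 samples, and Ctse and Ctsh stayed below 0.07 FPKM in each. Among the 9 tested, 2 were higher, 3 lower and 4 did not pass, with a median of -0.06. Ctsl, cathepsin L, which performs the late invariant chain cuts in thymic epithelium, was at 1631 ± 82.1 FPKM in parental cells and 1773 ± 45.2 in M8 (0.12 ± 0.05, limma adjusted p = 0.0892). Its call was lost in 9 of 15 alternatives, among them those without parental replicate 1 (limma adjusted p = 0.154) and without M8 replicate 1 (0.149), 2 (0.269) or 3 (0.192). Cstb, which encodes the cathepsin inhibitor cystatin B, was higher, from 274 ± 17.1 to 348 ± 18.2 FPKM (0.34 ± 0.06, limma adjusted p = 0.00248).

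The other 3 called genes of the list, each for a lysosomal or endosomal protease, were lower in M8. Sppl2a, the intramembrane protease that removes the last membrane stub of Cd74, fell by 0.26 on the log2 scale, from 13.3 ± 0.863 to 10.9 ± 0.318 FPKM (limma adjusted p = 0.0104). Lgmn, the asparagine endopeptidase legumain, fell by 0.23 and Ctsd, cathepsin D, by 0.13, the latter not passing without parental replicate 2 (limma adjusted p = 0.119) or M8 replicate 1 (0.138). Ifi30, the interferon-inducible lysosomal thiol reductase, was at 50.5 ± 0.848 FPKM in parental cells and 48.6 ± 1.41 in M8 (limma adjusted p = 0.338), and was called lower after quantile normalization (-0.13, limma adjusted p = 0.0358).

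Of 11 genes for endosomal transport of class II molecules and the invariant chain, 5 were higher and 2 lower, with a median of 0.05. Ap2m1 and Ap1m1, subunits of adaptor complexes that sort cargo in clathrin coats, were higher by 0.30 (limma adjusted p = 0.000979) and 0.22 (0.0123). The late endosome and lysosome genes Lamp1 and Rab7 were higher by 0.18 and 0.13, while the tetraspanin gene Cd81 was lower by 0.23 and the myosin gene Myo1e by 0.13. Lamp1 and Rab7 did not pass after quantile normalization (limma adjusted p = 0.35 and 0.424), and Rab7 not without M8 replicate 1 (0.113) or 2 (0.105). Myo1e was lost without any 1 of the parental replicates (limma adjusted p = 0.164, 0.164 and 0.103) and without M8 replicate 2 (0.224) or 3 (0.198).

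Cd74 also serves at the cell surface as a receptor for the cytokine Mif. Mif was abundant, at 845, 1147 and 1010 FPKM in the parental replicates and 1148, 1154 and 1197 in the M8 replicates. The highest parental value was just under the lowest M8 value (0.23 ± 0.09, limma adjusted p = 0.0853). This call was lost in 8 of 15 alternatives, among them those without parental replicate 1 (limma adjusted p = 0.151) or 3 (0.128) and without M8 replicate 1 (0.173), 2 (0.167) or 3 (0.199). Mif exceeded Cd74 61.0- to 89.2-fold in parental cells and 279- to 368-fold in M8. Of its other receptors, Cd44, the signalling partner of Cd74, was at 71.1 ± 6.40 and 68.1 ± 1.68 FPKM, and the chemokine receptor gene Ackr3 was at 7.04 ± 0.812 and 6.23 ± 0.250 FPKM (limma adjusted p = 0.197). Cxcr2 was below 0.5 FPKM in each sample, and Cxcr4 was listed at 0 in all 6 samples.

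The class I route, which loads peptides in the endoplasmic reticulum, gives a comparison for the class II genes. Of 11 genes tested, 3 were higher and 2 lower, with a median of 0.05. Psmb10, an immunoproteasome subunit, was higher by 0.81 ± 0.08 (limma adjusted p = 0.000311), from 15.5 ± 1.75 to 27.9 ± 2.21 FPKM. Tapbp, which encodes the peptide loading factor tapasin, was higher by 0.51 ± 0.05, and Psmb8, another immunoproteasome subunit, by 0.29 ± 0.06. H2-D1 was 735 ± 17.5 FPKM in parental cells and 668 ± 25.9 in M8 (-0.14 ± 0.04), and the peptide transporter gene Tap2 was also lower (-0.17 ± 0.05). H2-D1 did not pass without M8 replicate 1 (limma adjusted p = 0.159) and Tap2 not without M8 replicate 3 (0.118). H2-K1 was at 7.65 to 13.6 FPKM in parental cells and 10.3 to 12.3 in M8, far below H2-D1. H2-L was at 2.18, 3.07 and 9.21 FPKM in the parental replicates and 3.37, 1.66 and 1.79 in the M8 replicates, with overlapping groups (limma adjusted p = 0.201). The effect of MHC polymorphism on mapping was not tested for these heavy chains either.

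Nlrc5, the class I counterpart of Ciita, was detected in both lines, at 5.27 ± 0.518 FPKM in parental cells and 4.95 ± 0.224 in M8 (limma adjusted p = 0.515). B2m, the light chain of class I molecules and of MR1, was at 1957 ± 9.80 and 1884 ± 37.3 FPKM (limma adjusted p = 0.316), and was called lower in TPM and after upper-quartile scaling. Mr1 itself, also carried as a transgene in both lines, was at 1081 ± 51.0 and 1055 ± 34.7 FPKM (limma adjusted p = 0.615). Transcripts of the transgene and of the endogenous gene were not told apart.

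**Figure D4:**
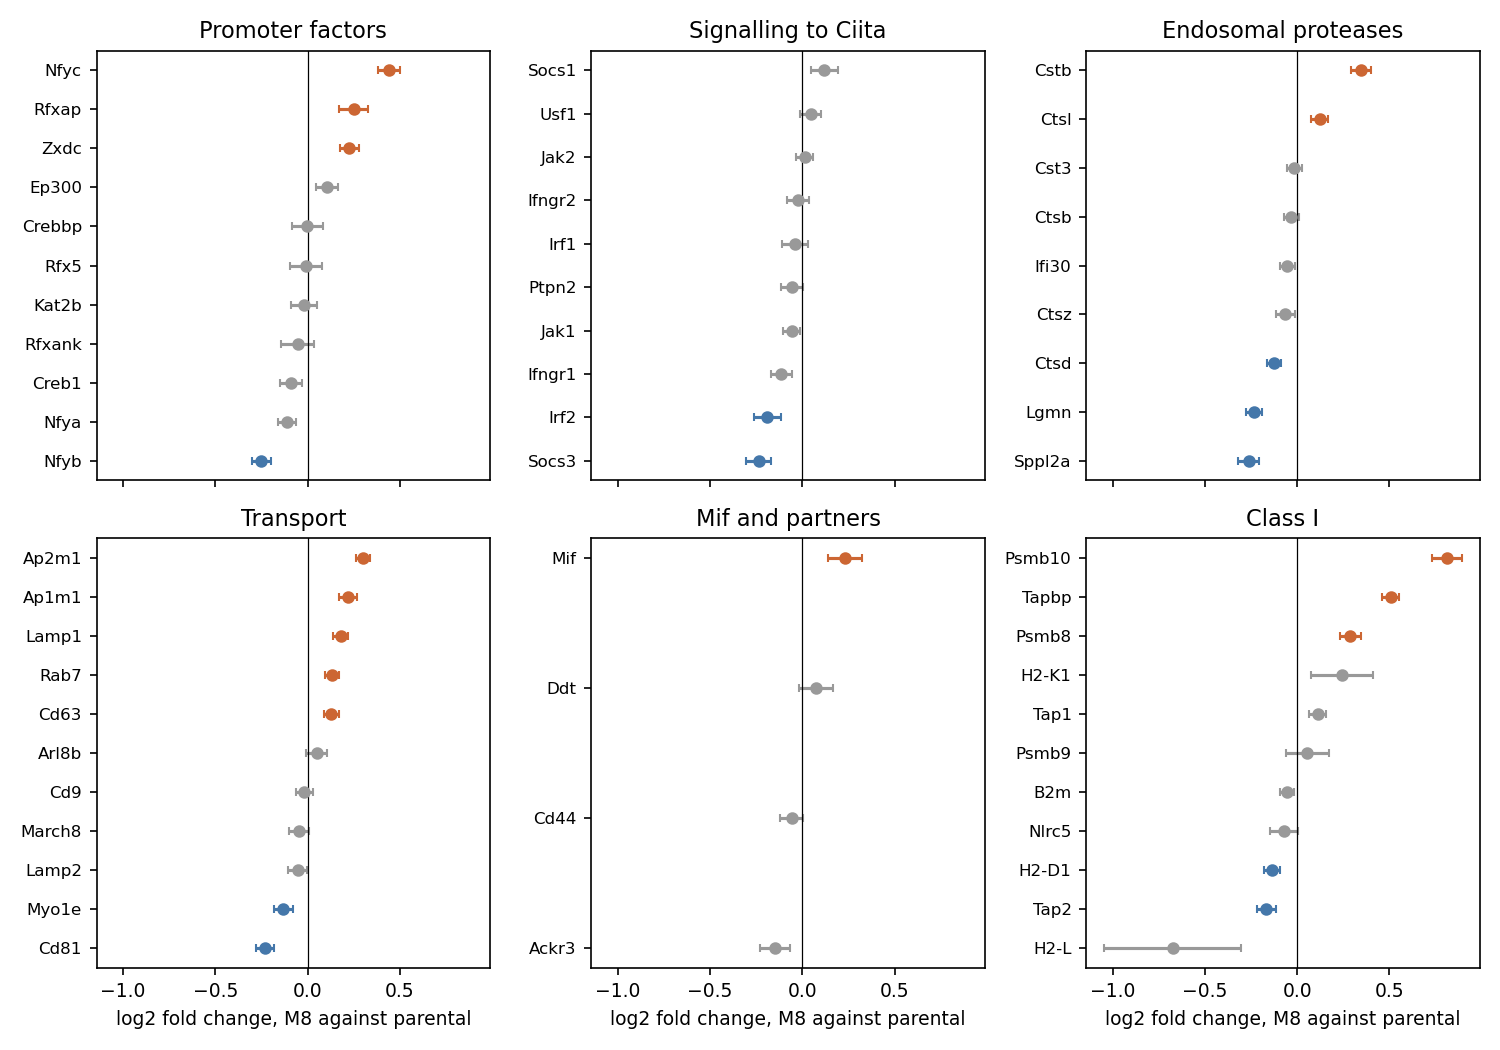
Log2 fold changes of FPKM + 1 in M8 against parental cells, with SE bars, for the tested genes of 6 lists except 1 that is not reported here, in orange where limma called them higher, in blue where lower and in gray where neither. Psmb10 at 0.81 is the farthest to the right, and the lists of promoter factors, endosomal proteases, transport and class I hold genes called in both directions.

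Cells that normally express class II molecules were checked through their markers. Of 16 macrophage and dendritic cell markers, 13 had a mean below 1 FPKM, and the summed level of the list was 22.1 to 24.0 FPKM in parental samples and 20.7 to 23.0 in M8. Adgre1, Csf1r, Fcer1g and Laptm5 were at 0 in all 6 samples, and Ptprc, the pan-leukocyte marker CD45, was at 0.00797 FPKM in parental replicate 1 and at 0 in the others. Cd68, a lysosomal glycoprotein of macrophages, was lower in M8 like Cd74, at 4.31 ± 0.563 against 1.76 ± 0.605 FPKM (-0.96 ± 0.15, limma adjusted p = 0.00203). The other two markers above 1 FPKM went in different directions, with Cd14, a lipopolysaccharide co-receptor and the most abundant of the list, higher at 15.4 to 16.4 FPKM in parental samples against 17.3 to 18.7 in M8 (0.15 ± 0.05, limma adjusted p = 0.0489) and Zbtb46, a dendritic cell transcription factor, lower at 2.03 ± 0.309 against 1.48 ± 0.111 FPKM (-0.29 ± 0.11, limma adjusted p = 0.0706). Of 7 B cell markers, 6 were below 1 FPKM on average, with Ms4a1, Pax5 and Cd22 at 0, and Blnk made up nearly the whole summed level of 31.5 to 32.6 FPKM in parental samples and 37.6 to 40.5 in M8.

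The labelled tissue of origin, colon, was reflected in few epithelial markers. Of 12 such genes, 10 had a mean below 1 FPKM, and Epcam, Cdh1, Krt19, Cdx2 and Lgr5 were at 0 in all samples. Those above 1 FPKM were the keratin genes Krt18, at 32.5 ± 6.97 FPKM in parental cells and 36.4 ± 1.85 in M8 (limma adjusted p = 0.321), and Krt20, which was lower in M8, at 17.4 ± 2.36 against 11.9 ± 0.979 FPKM (-0.50 ± 0.09, limma adjusted p = 0.00438). In contrast, 8 of 8 mesenchymal markers were above 1 FPKM, with Vim at 1921 ± 197 FPKM in parental cells and 2015 ± 43.9 in M8.

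The genes whose pattern over the 6 samples was nearest to that of Cd74 were Lcn2, Lypd5, Avil, Aqp1 and Bpifc. Likeness was the root mean square difference from Cd74 in log2(FPKM + 1) after subtraction of the parental mean, and it was 0.25 for Lcn2, 0.35 for Lypd5, 0.43 for Avil, 0.46 for Aqp1 and 0.50 for Bpifc. The median over all 10596 genes compared was 1.20, and H2-DMa, at 0.93, ranked 344th. Lcn2, which encodes a secreted protein that binds bacterial siderophores, was at 57.5, 39.5 and 41.6 FPKM in parental cells and 16.8, 11.5 and 12.9 FPKM in M8. Like Cd74, its M8 samples lay below the parental ones by 3.36-fold on average, but its parental replicates spread more widely, with a coefficient of variation of 21.3% against 9.21% for Cd74.

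**Figure D5:**
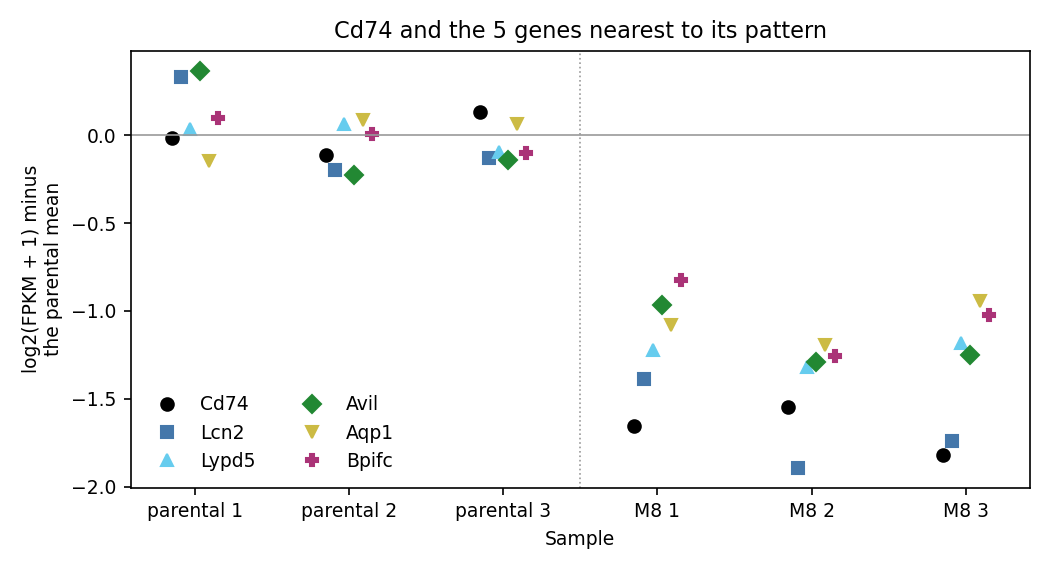
Log2(FPKM + 1) minus the parental mean in each of the 6 samples for Cd74 (black) and the 5 genes nearest to it. The 6 genes scatter about 0 in the parental samples and lie below -0.8 in the M8 samples, where Cd74 and Lcn2 are the lowest.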

How the data were processed

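Total RNA from CT26.mMR1 and M8 cells was made into stranded mRNA libraries and sequenced as single reads on an Illumina NovaSeq. Mapping was to mm10 with TopHat, and FPKM were computed by the authors in Cufflinks, version 2.2.1, and deposited as 1 table of 24346 symbols per sample. Their processing notes name TopHat2 2.1.1, Bowtie2 2.2.8, SAMtools 0.1.18 and Cuffdiff 2.2.1. The gene annotation and the strand setting are not given in the sources used here.

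Linear models were fitted to log2(FPKM + 1) in limma (version 3.58.1, R 4.3.3; eBayes used a mean-variance trend) over the genes whose mean FPKM reached 1, two-sided, without covariates and with Benjamini-Hochberg adjustment over all 10597 genes at 0.1. Fold changes on this scale understate those of low genes. Reads were estimated from FPKM steps and transcript lengths, with 200 bases taken off each length. For H2-Eb1 and Ctss their own steps were used. For the other members the longest protein-coding transcript was assumed, so their reads and limits depend on that choice. Steps of 1858 of 2057 low genes were whole multiples within 0.02 reads, a tolerance that widened with the square root of the reads. Depth came from 387 single-transcript genes. Limits from 3 reads cover counting error only. The fit was tested on simulated data.

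The members and lists were chosen with earlier results of these data known. Named were the members, up to 6 genes per route list with the largest change among those called, fixed genes (Rfx5, Irf1, Ifi30, Mif, Nlrc5, B2m and Mr1; 1 more is not reported here), and 5 genes nearest to Cd74. Marker and neighbouring genes were added by their lists. The other class I, Mif-receptor and class II genes given with values were chosen after their values were seen, as were the housekeeping genes. Alternatives were other pseudocounts, filters, scalings and variance models, a replicate block and each replicate left out.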

Additional observations from a re-analysis of the deposited data

How the results depend on the processing

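The fall of Cd74 and H2-DMa kept its direction in each alternative run. With a pseudocount of 0.1 the log2 fold change was -1.89 for Cd74 and -0.59 for H2-DMa. Leaving out 1 replicate at a time gave -1.74 to -1.60 for Cd74 and -0.49 to -0.29 for H2-DMa. The filter of a mean FPKM of at least 5 left H2-DMa without a value. For the route lists, the number higher was 10 to 16 and the number lower 6 to 12 with 1 replicate left out, the lowest count of lower genes being without parental replicate 2. Quantile normalization gave 16 lower, and the cause was not tested. No named gene that was called changed sign, whereas Rfx5, Irf1 and Mr1, which were not called, did so in some alternatives (up to 0.07, 0.02 and 0.0039). Low depth limits Ciita, Ctss and the class II chains, for which differences under 3 reads per library could not be seen.

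Same-numbered samples of the lines did not deviate together (Pearson's r across genes of 0.10, -0.11 and -0.03, genes not being independent replicates), so the numbers were not taken as pairs. With the replicate number as a block, 14 genes of the route lists were higher and 9 lower, and the log2 fold change stayed at -1.67 for Cd74 and -0.38 for H2-DMa. The calls of Ctsl and Myo1e were lost with the block (limma adjusted p = 0.11 and 0.101).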
